A study of Mus musculus with 3 samples.

Results

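In the Setd1a CUT & RUN peak list of cultured quiescent adult NSCs, 209 of 6969 peaks were CpG-poor peaks over the transcription start site (TSS) of a protein-coding gene. They were chosen by sequence and annotation, not by a measured level. A peak on chromosomes 1 to 19 was taken when it covered the TSS of a protein-coding transcript, when no other gene's coding TSS on the opposite strand lay within 1000 bp of its edges, and when its CpG ratio was below 0.6. The CpG ratio is the observed number of CG dinucleotides over the number expected from the C and G content. Of 6911 peaks on these chromosomes, 3032 covered a coding TSS and 2484 of those met the strand condition. These 2484 split into the 209 CpG-poor peaks, over 209 genes, and 2275 CpG-rich peaks with a ratio of 0.6 or more.

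Adult NSCs came from the dentate gyrus of Hopx-CreERT2::Setd1afl/fl::H2B-GFP mice aged 7 to 8 weeks, which carry an inducible Cre driven from *Hopx* and loxP-flanked *Setd1a* alleles, and were labelled WT. Quiescence was induced with BMP4 and FGF2, each at 20 ng/ml, and cells were collected at day 5. CUT & RUN cuts chromatin around an antibody with a tethered nuclease, and was done with an antibody to Setd1a in 2 independent cultures and with IgG in 1 library. All libraries thus share the genotype, the medium and the day. In the study's culture scheme, cells received lentivirus for GFP alone or for Cre-GFP before day 5, and its WT RNA-seq cells expressed GFP. Whether the CUT & RUN cultures received a virus is not stated outright. The list holds only intervals found in both Setd1a libraries, with no height, score or read number, so no spread between replicates, no depth and no amount of Setd1a per site can be given. A gene absent from it is a gene without a listed peak, which does not show that Setd1a was absent.

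Setd1a is a histone H3K4 methyltransferase that works in the COMPASS complex, and the CXXC finger protein Cxxc1 (Cfp1) of that complex binds unmethylated CpG. Most promoters of widely expressed genes lie in CpG islands, stretches rich in CG dinucleotides that are usually unmethylated and often marked by H3K4me3. CpG-poor promoters are commonly those of tissue-restricted genes, and more of them hold a TATA box.

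The sequences below are examples of the bases just upstream of the TSS, with 1 CpG-rich promoter for contrast. Members were picked for TATAAA (*Id1*) or for a low ratio among the genes described, and the contrast for a very high ratio. These examples are thus not typical, as the median peak ratio was 0.487 in members and 0.850 in CpG-rich peaks. Each sequence is the 80 bases before the TSS on the coding strand, read from GRCm38. Capitals mark CG dinucleotides except in *Id1*, where they mark TATAAA.
*Zfp385a*: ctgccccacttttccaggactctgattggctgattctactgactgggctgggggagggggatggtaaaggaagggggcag
*S100b*: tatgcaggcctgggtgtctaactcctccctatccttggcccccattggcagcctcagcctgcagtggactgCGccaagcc
*Ttyh1*: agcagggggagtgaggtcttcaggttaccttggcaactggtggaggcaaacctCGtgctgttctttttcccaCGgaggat
*Gapdh*: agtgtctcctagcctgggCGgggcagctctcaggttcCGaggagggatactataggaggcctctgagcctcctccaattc
*Pipox*: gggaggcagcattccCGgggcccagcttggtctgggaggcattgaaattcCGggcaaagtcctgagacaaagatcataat
*Zyx*: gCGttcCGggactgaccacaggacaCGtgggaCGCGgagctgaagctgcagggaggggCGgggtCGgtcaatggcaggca
*Id1*: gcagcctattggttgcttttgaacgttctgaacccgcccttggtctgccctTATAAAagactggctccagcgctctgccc
*Errfi1*: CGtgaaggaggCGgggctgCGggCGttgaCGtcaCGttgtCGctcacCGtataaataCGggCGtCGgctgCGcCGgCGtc
They lie at chr15:103334328-103334407, minus strand (*Zfp385a*), chr10:76253773-76253852, plus strand (*S100b*), chr7:4124409-4124488, plus strand (*Ttyh1*), chr6:125166468-125166547, minus strand (*Gapdh*), chr11:77894097-77894176, minus strand (*Pipox*), chr6:42349550-42349629, plus strand (*Zyx*), chr2:152736171-152736250, plus strand (*Id1*) and chr4:150854993-150855072, plus strand (*Errfi1*). The windows of *Zfp385a*, *Ttyh1*, *Zyx* and *Errfi1* fell in introns of annotated transcripts, while those of *S100b*, *Gapdh*, *Pipox* and *Id1* lay outside transcripts. The 80 bases held 0 CG dinucleotides in *Zfp385a*, 1 in *S100b*, 2 each in *Ttyh1*, *Gapdh* and *Pipox*, 3 in *Id1*, 7 in *Zyx* and 14 in *Errfi1*, the CpG-rich example with a peak ratio of 1.24. The ratio that chose the members was taken over the whole peak, and *Zyx* shows that a short stretch of a CpG-poor peak can still hold many CG.

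CpG-poor peaks over coding TSSs were rare among genes. Of 20757 coding genes on chromosomes 1 to 19, 1.01% had such a peak, whereas 16.2% had any peak over a coding TSS. Taking 1 promoter per gene, from 250 bases before to 50 after the most upstream coding TSS, 11119 promoters were CpG-poor and 9638 were not. A peak covered the TSS of 273 of the CpG-poor promoters (2.46%, 95% Wilson interval 2.18 to 2.76) and of 2512 of the others (26.1%, 25.2 to 26.9), an odds ratio of 0.0714 (two-sided Fisher's exact test over genes, p at most 1e-300). With the classes split at 0.5 or 0.7, the odds ratio was 0.0403 or 0.123. These 273 genes are not the 209 members, since here the ratio is that of the promoter and genes with an opposite-strand neighbour stay in.

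The share of promoters with a peak rose in steps with the CpG ratio rather than at 0.6 alone. In promoters with a ratio below 0.1, 4 of 2437 had a peak (0.164%). It was 2.24% at 0.3 to 0.4, 4.32% at 0.4 to 0.5 and 10.3% at 0.5 to 0.6, where 152 of 1472 promoters had one. Above the threshold it was 17.5% at 0.6 to 0.7 and 32.3% at 0.9 to 1.0, and in the bins above that it was 30.9% and 31.4%. Thus 152 of the 273 CpG-poor promoters with a peak lay in the bin just below the threshold.

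**Figure D1:**
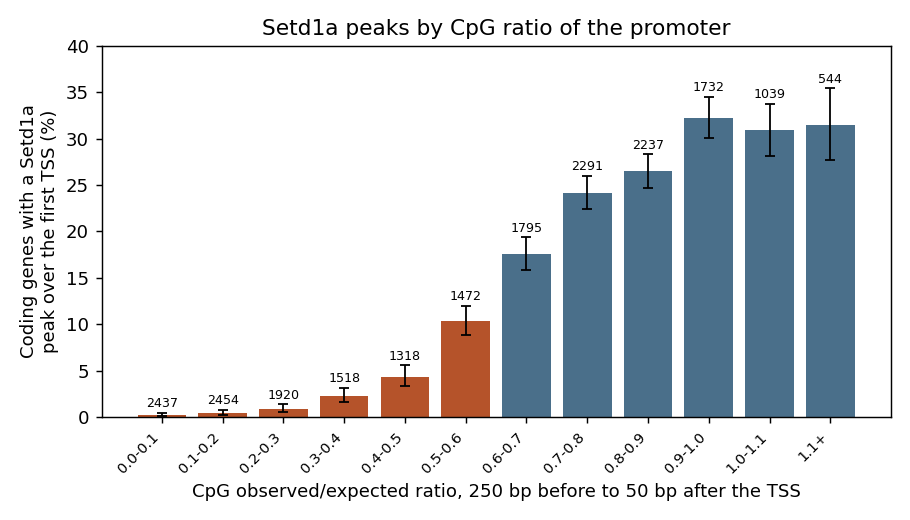
Share of most upstream coding TSSs covered by a Setd1a peak (y axis, percent, with 95% Wilson intervals) against the CpG ratio of the promoter window (x axis). The share was 0.164% in the lowest bin, 10.3% just below 0.6 and 32.3% at 0.9 to 1.0.

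Among the members, the CpG ratio ranged from 0 to 0.599 with a median of 0.487. In 99 members it was 0.5 to 0.6, in 76 it was 0.3 to 0.5 and in 34 below 0.3. Over a fixed 1000 bp around the midpoint of the peak, 162 members stayed below 0.6 and 47 did not, 42 of which came from the class at 0.5 to 0.6 and none from the class below 0.3. The members just inside the threshold were *Cyb561d1* (0.598), *Ddb2* (0.599) and *Phc2* (0.599), and the peaks just outside were those over *Strada* (0.600006), *Lman2* (0.601) and *Acaa2* (0.601). The GC content of the members ran from 38.7% to 71.3% with a median of 56.5%, against a median of 65.2% in the CpG-rich peaks. Members held a median of 18 CG dinucleotides, from 0 to 67.

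Peak width set no threshold of the rule, but the CpG ratio was taken over the same interval, so the classes are not fully independent of width. Member widths had a median of 514 bp (range 240 to 1700), against 601 bp for CpG-rich peaks and 465 bp for all 6969. In 116 members (55.5%, 48.7 to 62.1) the peak was wider than that overall median, against 1563 CpG-rich peaks (68.7%, 66.8 to 70.6), an odds ratio of 0.568 (Fisher's exact test, adjusted p = 0.000253). With the ratio taken over the fixed 1000 bp, whose length is the same for every peak, the odds ratio was 0.549 (exact test, adjusted p = 6.9e-05), and at a threshold of 0.7 it was 0.845 and did not pass (exact test, adjusted p = 0.161). All p-values on features of peaks are two-sided and Benjamini-Hochberg adjusted over 14 features, and they treat peaks as the units, since the list has no replicates. Peaks of 1000 bp or more made up 15.3% of the members (32 peaks) and 13.0% of the CpG-rich peaks, a difference that did not pass the test (odds ratio 1.21, Fisher's exact test, adjusted p = 0.394). Among the members, width and CpG ratio had a Spearman correlation of 0.0414 over 209 peaks of the same list.

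**Figure D2:**
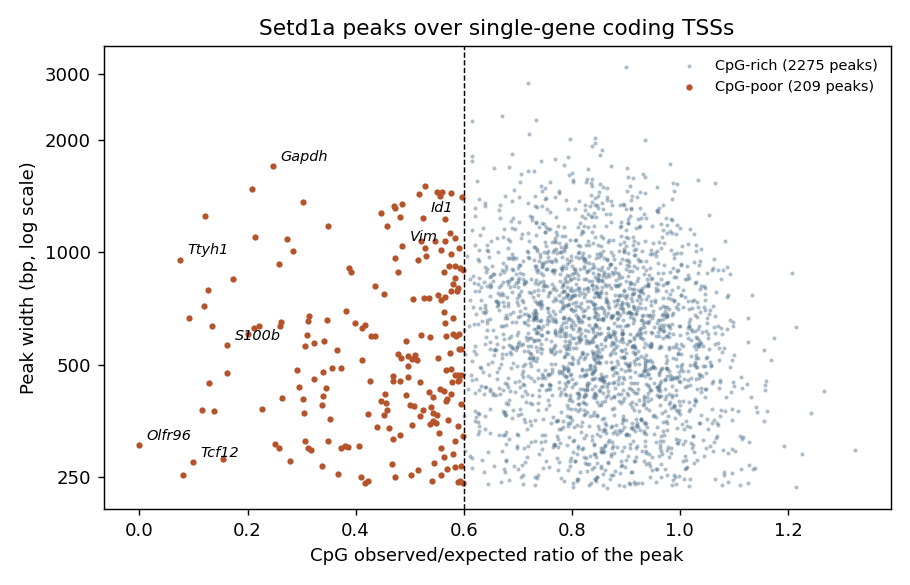
Width (y axis, bp, log scale) against the CpG ratio (x axis) of each single-gene peak over a coding TSS, with CpG-poor and CpG-rich peaks in different colours. CpG-poor members spanned 240 to 1700 bp, and the widest, over *Gapdh*, had a ratio of 0.248.

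The 5 widest members ran from a ratio of 0.208 to 0.559. The widest lay over *Gapdh*, which encodes a glycolytic enzyme, at chr6:125165831-125167530. It spanned 1700 bp, exceeding 99.4% of the list in width, with a ratio of 0.248 and 34 CG dinucleotides. *Atg2a*, a lipid transfer protein of autophagy, had a peak of 1507 bp at a ratio of 0.529. *Pipox*, a peroxisomal oxidase of sarcosine and pipecolic acid, had one of 1476 bp at chr11:77893610-77895085 with only 19 CG dinucleotides and a ratio of 0.208. Both *Irgq* (1455 bp, 0.559) and *Rnf13* (1448 bp, 0.551), the latter an E3 ubiquitin ligase, were nearer the threshold. All of these 5 peaks covered the most upstream coding TSS of their gene.

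The 5 members with the lowest ratios were of another kind, since none covered the most upstream coding TSS. The peak over *Olfr96*, an olfactory receptor gene, held 0 CG dinucleotides in 304 bp at chr17:37224939-37225242, and lay 4945 bp from the first coding TSS. *Ttyh1*, a membrane protein of the tweety family, had 5 CG in 955 bp at chr7:4123635-4124589, 4959 bp from the first TSS. *Zfp385a*, a zinc finger protein, had 2 in 253 bp at chr15:103334179-103334431. In *Gas7* (4 CG in 668 bp) and *Tcf12* (1 CG in 274 bp), a bHLH transcription factor, the covered TSS was 131099 and 215782 bp from the first one. Both of these genes had a further peak over a coding TSS or within 3000 bp of one, with a ratio of 0.382 in *Gas7* and 1.02 in *Tcf12*.

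Across all members, 131 of 209 (62.7%, 55.9 to 69.0) covered the most upstream coding TSS of their gene, against 1853 CpG-rich peaks (81.5%, 79.8 to 83.0), an odds ratio of 0.382 (Fisher's exact test, adjusted p = 1.01e-08). The TSS of an APPRIS principal transcript, the isoform taken as the main protein product, was covered by 149 members (71.3%) and 2018 CpG-rich peaks (88.7%), with an odds ratio of 0.316 (exact test, adjusted p = 2.09e-09). A transcript of the best support level started under 73.7% of members and 87.0% of CpG-rich peaks (odds ratio 0.419, exact test, adjusted p = 4.13e-06). CpG-poor peaks were thus more often at internal and less well supported starts of this annotation. At a CpG threshold of 0.7 these odds ratios were 0.650, 0.564 and 0.660, nearer 1 and still past the test, and at 0.5 the one for support level was 0.275. Among GENCODE basic transcripts alone, 183 peaks were CpG-poor, and their shares were higher, at 75.4%, 81.4% and 82.0% in the same order. The odds ratios there were 0.459, 0.367 and 0.527, still past the test. CpG-rich peaks were also wider and covered a median of 2 TSS positions against 1, so each had more chances to cover such a start. The part of this was not tested. Within the members, as a description, the share over the first TSS also rose with the ratio. The first TSS was covered by 41.2% of those below 0.3, 61.8% of those at 0.3 to 0.5 and 70.7% of those at 0.5 to 0.6.

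In the 78 members at an internal TSS, the distance from the first coding TSS was 55 to 703103 bp with a median of 4923 bp, and 26 were over 10000 bp away. A further peak lay over a coding TSS of the gene, or within 3000 bp of one, in 36 members (17.2%, 12.7 to 22.9) and 189 CpG-rich peaks (8.31%), an odds ratio of 2.30 (Fisher's exact test, adjusted p = 0.000153). The covered TSS counted too, so a second peak near the same start is included, and 12 members had a neighbouring peak within 1000 bp. A further peak could also belong to another gene, as in *Fkbpl*, whose further peak had the ratio (0.777) of the peak over *Atf6b*. The odds ratio thus does not count only second promoters of the same gene. Among peaks without a neighbour within 1000 bp the odds ratio was 3.33 (exact test, adjusted p = 1.52e-05). In 26 of these 36 the further peak, or the highest in ratio if there were several, had a ratio of 0.6 or more. Of all 2484 single-gene peaks over a coding TSS, 2275 had such a ratio, a higher share. The sets differ, since a further peak need not cover a TSS or meet the strand condition, so nothing is read from the count. *Actn1*, an actin crosslinker, was one case, with a peak of 298 bp at 280 bp from its first TSS beside a further peak of ratio 0.605. Further cases were picked after their values were seen, and they are not typical. Of the 78 members at an internal TSS, only 26 had a further peak, with a ratio of 0.6 or more in 20. Among the picked cases, the member and the highest further peak had ratios of 0.591 and 0.900 in *Nr3c1*, the glucocorticoid receptor. The 2 ratios were 0.313 and 0.960 in *Cbx5*, the heterochromatin protein HP1 alpha, 0.339 and 1.05 in *Chn1*, and 0.467 and 0.996 in *Wiz*.

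Members were then read against lists of cell type and pathway genes. Cell type markers were counted first. Of 40 neural stem cell and astroglial genes, 5 had a peak over a coding TSS (*Nes*, *Vim*, *Glul*, *S100b* and *Cpe*, 12.5%), below the 16.2% over all coding genes, and 2 of them, *Vim* and *S100b*, were members (5%, against 1.01% of all coding genes). No gene of the 17 neuronal, 16 microglial and blood or 16 endothelial and mural markers had any TSS peak. Of these genes, 10, 15 and 14 had a CpG-poor promoter, against 23 of the 40 neural stem cell and astroglial genes. Only 2.46% of all CpG-poor promoters had a peak over the TSS, so the absence of peaks there cannot tell cell types apart. In the oligodendrocyte list of 13, *Olig1* and *Pdgfra* had one, neither CpG-poor. A peak does not measure expression, so this count covers marker genes with a peak only.

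*S100b*, a calcium-binding protein of astrocytes, had a peak of 564 bp at chr10:76253581-76254144 centred 9 bp from the TSS, with 6 CG dinucleotides and a ratio of 0.163. It had the lowest ratio among the members described from the lists. *Vim*, the intermediate filament of neural stem cells and astroglia, had a peak of 1037 bp at chr2:13573349-13574385 with 40 CG and a ratio of 0.487, and a further peak of 0.557 that was CpG-poor too. Both covered the first coding TSS of the gene.

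*Id1*, an inhibitor of bHLH transcription factors and a textbook target of BMP signalling, was the 1 member of 20 BMP and Id genes (5%). Its peak of 1239 bp at chr2:152735266-152736504 lay mostly upstream, with its midpoint 366 bp before the TSS, and had a ratio of 0.525. *Id2*, *Id4*, *Smad1* and *Smad7* of the same list had TSS peaks outside the CpG-poor set, making 5 of 20 with any TSS peak (25%, against 16.2%). All libraries came from cells in BMP4 medium at day 5, and no library without BMP4 was analysed here.

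The actin, S100, annexin and galectin list had 3 members of 39 (7.69%, against 1.01%). They were *Myl6*, a myosin light chain (1278 bp, 0.447), *Zyx*, a focal adhesion protein (968 bp, 0.472), and *Actn1* (0.559). Any TSS peak was found in 9 of the 39 genes (23.1%, against 16.2% of all coding genes). The lysosome list had 1 member of 29 (3.45%), *Tpp1*, a lysosomal peptidase (570 bp, 0.322), and 7 genes with any TSS peak (24.1%). *Cdk4*, the G1 kinase (761 bp, 0.566), was the 1 member of 26 cell cycle genes (3.85%), of which 8 had any TSS peak (30.8%). *H2-D1*, an MHC class I gene (550 bp, 0.592), was the 1 member of 23 interferon and MHC genes (4.35%), of which 6 had any TSS peak (26.1%). *H2-D1* belongs to a family of close copies, so its peak is uncertain where reads could not be placed uniquely. The 24 immediate early and stress genes had 9 with a TSS peak (37.5%, against 16.2%) and none with a CpG-poor one. These counts are small, and no list was tested.

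**Figure D3:**
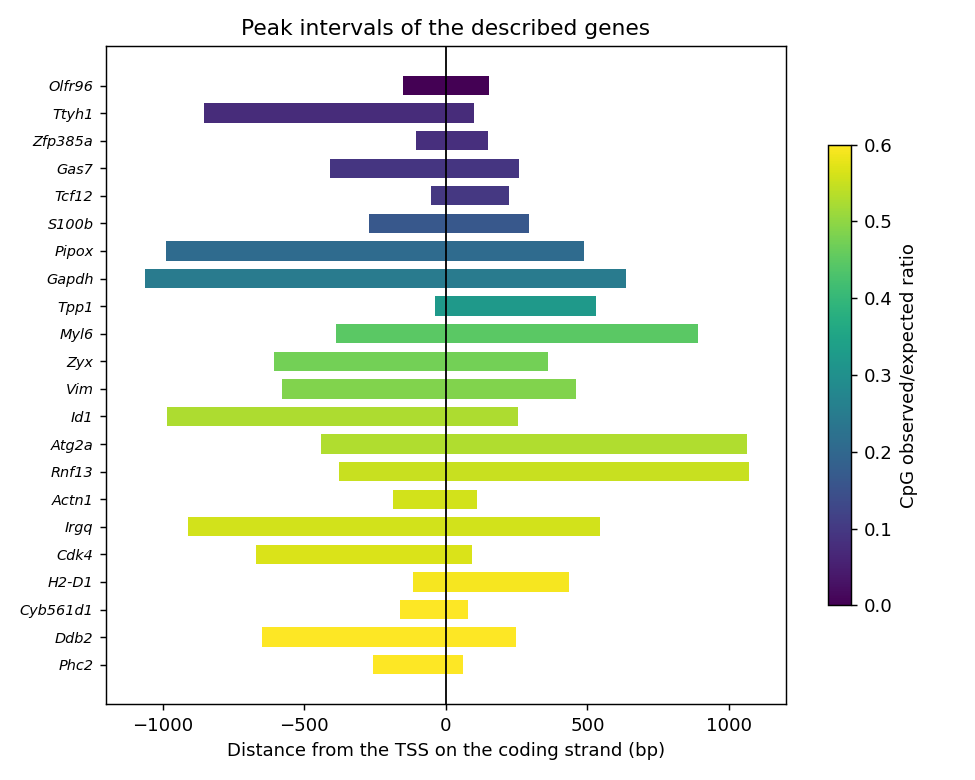
Position of the peaks of named members relative to the TSS (x axis, bp, with transcription to the right), 1 bar per peak and coloured by CpG ratio. The *Id1* peak extends mostly upstream, with its midpoint 366 bp before the TSS, and that of *S100b* is centred 9 bp from it.

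Members sat on both sides of their TSS. The midpoint lay upstream in 117 and downstream in 92, with a median of 28 bp upstream and a range from 422 bp upstream to 482 bp downstream. CpG-rich peaks had a median of 5 bp downstream. Most members (126) covered 1 TSS position, and the rest up to 11, while CpG-rich peaks covered a median of 2. In 14 members the TSS base lay in a repeat (6.70%), against 139 CpG-rich peaks (6.11%), a difference that did not pass the test (odds ratio 1.1, Fisher's exact test, adjusted p = 0.822). Repeats made up most of the peak in 1 member and 8 CpG-rich peaks. By chromosome, the CpG-poor share of single-gene TSS peaks ran from 4.88% (4 peaks, chromosome 16) to 11.9% (24 peaks, chromosome 7). A noncoding gene's TSS lay under 9 members, and this was not counted for the CpG-rich peaks.

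Short words known as transcription factor motifs were then counted around the TSS, from 250 bases before to 50 after it and on both strands. Each word is a match of letters and not a bound site. The TATA word TATAAA was sought on the coding strand only, from 40 to 15 bases before the TSS. It was found in 1 member, *Id1*, starting 29 bases before the TSS (0.478%), and in 19 CpG-rich peaks (0.835%, odds ratio 0.571, Fisher's exact test, adjusted p = 1). Over all coding promoters the share was 2.48%, and over CpG-poor ones 3.93%. In a wider window, from 80 bases before the TSS to the TSS and added after seeing the data, it was 3 members (1.44%) against 1.49% of CpG-rich peaks.

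All 6 other words tested were more frequent in members than in CpG-rich peaks. The rule used the C, G and CG counts of the peak, so the classes are not independent of the base content of these words. The tests on these words thus cannot tell a trait of the members from an effect of the rule. The NF-Y word CCAAT was found in 112 members (53.6%) and 42.0% of CpG-rich peaks, with an odds ratio of 1.59 (Fisher's exact test, adjusted p = 0.00209). The AP-1 word TGANTCA was in 18 members (8.61%) and 3.12% of CpG-rich peaks (odds ratio 2.93, exact test, adjusted p = 0.000461). The AP-1 odds ratio was 6.54 from 100 bases before to 50 after the TSS and 1.90 at a CpG threshold of 0.7, both past the test. The NFI word TTGGCA, one arm of the palindromic site, was in 42 members (20.1%) and 9.32% of CpG-rich peaks (odds ratio 2.45, exact test, adjusted p = 1.95e-05). As general background, NFI factors are known regulators of NSC quiescence, and AP-1 factors respond to growth signals. No binding or effect of either was measured here. Neither word passed the test between CpG-poor promoters with and without a peak, given below. By the same exact test, odds ratios were 1.88 for the SOX word ACAAAG (39 members, 18.7% and 10.9%, adjusted p = 0.00205), 2.22 for the E-box CANNTG (155, 74.2% and 56.4%, adjusted p = 1.71e-06) and 1.91 for the ETS word AGGAAG (89, 42.6% and 28.0%, adjusted p = 3.71e-05). CANNTG and TGANTCA read the same on both strands. The GC box GGGCGG holds a CG, which the rule used, and is only described: 51.7% of members and 76.4% of CpG-rich peaks had it.

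Base composition moved with these shares, as the median GC content was 56.5% in members and 65.2% in CpG-rich peaks, and its part in them was not tested. Over all 11119 CpG-poor promoters the shares were 39.3% for CCAAT, 9.58% for AP-1, 17.6% for NFI, 21.8% for SOX, 78.2% for the E-box and 39.3% for ETS. The members' shares were thus below those of CpG-poor promoters in general for the SOX, AP-1 and E-box words and above them for CCAAT, NFI and ETS, with no test of these differences.

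A comparison added after seeing the data set the 273 CpG-poor promoters with a peak against the 10846 without, with adjustment over 8 words. AP-1 (6.96% and 9.64%, adjusted p = 0.194), NFI (15.8% and 17.7%, 0.469), E-box (73.6% and 78.3%, 0.119) and ETS (41.8% and 39.3%, 0.469) did not pass Fisher's exact test. CCAAT was more frequent with a peak (48.0% and 39.0%, odds ratio 1.44, exact test, adjusted p = 0.0126), as was the GC box (52.0% and 19.1%, odds ratio 4.58, adjusted p = 5.03e-32). SOX (16.1% and 22.0%, odds ratio 0.682, exact test, adjusted p = 0.0425) and TATAAA (3 and 434 promoters, odds ratio 0.267, adjusted p = 0.0281) were less frequent. The promoters with a peak lay nearer the threshold, and in those of ratio 0.5 to 0.6 alone, 152 with a peak and 1320 without, none of the 8 passed the test. There CCAAT (76 promoters with a peak, odds ratio 1.60) had an adjusted p of 0.0531 by the exact test, and the GC box (61.8% and 51.9%, odds ratio 1.5) one of 0.0824.

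**Figure D4:**
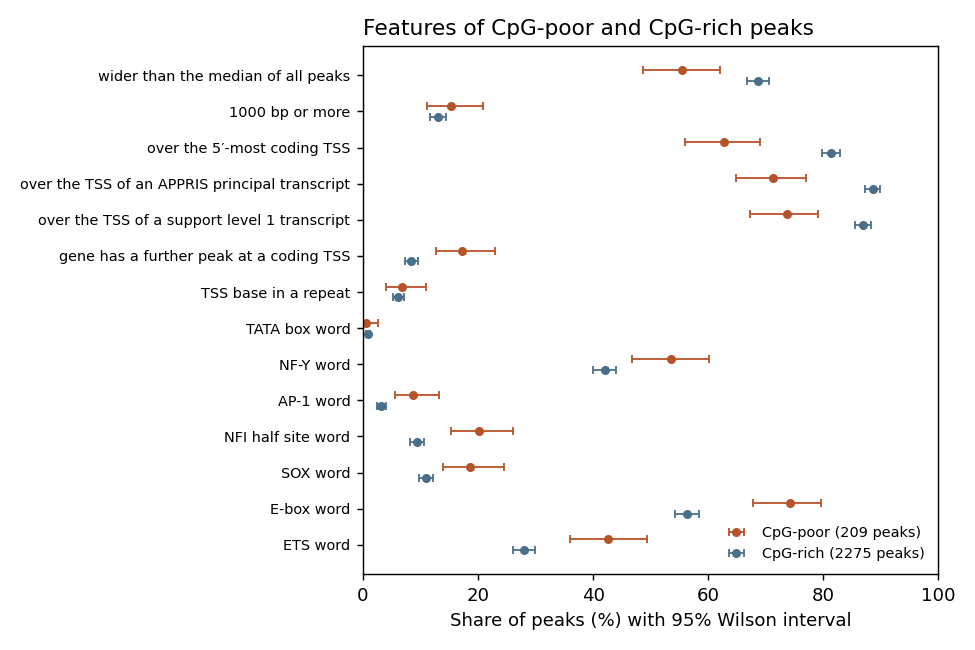
Share of CpG-poor (209) and CpG-rich (2275) peaks with each feature (x axis, percent, with 95% Wilson intervals), 1 row per feature. CpG-poor peaks covered the first coding TSS less often (62.7% against 81.5%) and held the E-box word more often (74.2% against 56.4%). Over all CpG-poor promoters the E-box share was 78.2%, above that of the CpG-poor peaks.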

How the data were processed

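Setd1a and IgG CUT & RUN libraries were made from cultured quiescent adult NSCs. Per the submitters' processing notes and the study's methods, the authors demultiplexed reads with bcl2fastq 2.17.1.14, trimmed them with Trimmomatic 0.32, mapped them uniquely to mm10 with Bowtie2 2.1.0, filtered low mapping quality with SAMtools 0.1.18, and called peaks with MACS2 2.2.8. The deposited list gives chromosome, start and end (bp) of peaks found in both replicates. The methods give the list as the intersection of the peaks of both replicates. Whether peaks were called against the IgG library, and whether an interval in the list is the shared stretch or the whole peak of a replicate, are not given in the sources used here. Unique mapping leaves out reads in close gene copies and repeats. The depth per library is unknown.

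Intervals were read as 1-based and inclusive and set on GRCm38 with GENCODE M21, with Python 3.11.15, pandas 2.3.3, numpy 2.4.6, scipy 1.17.1, pysam 0.24.0, samtools 1.23.1 and matplotlib 3.10.9. Repeats are the soft-masked bases of the RefSeq sequence. Shares were compared with two-sided Fisher's exact tests and 95% Wilson intervals, which cover counting only. Peaks and genes are not replicates, so the tests describe this list. Scripts were tested on simulated data.

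Genes described by rule were members on a gene list, the 5 widest, the 5 lowest in CpG ratio, 3 on each side of the threshold and those with TATAAA. One gene list with its member is not reported here. Members and lists were chosen with earlier results of these data known. Alternatives moved the threshold, the windows, the TSS set and the minimum width (300 bp).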

Additional observations from a re-analysis of the deposited data

How the results depend on the processing

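Of 112 values recomputed under alternatives, 100 were counted as unchanged, which for a tested value means the same direction and side of the test threshold. The 112 include 8 counts of CpG-poor peaks, which have no direction or test, and features that did not pass the test to begin with. The number of CpG-poor peaks moved to 110 at a CpG threshold of 0.5 and 474 at 0.7. At 0.5 the odds ratio of CCAAT against CpG-rich peaks was 1.45, no longer past the exact test (adjusted p = 0.078), and at 0.7 that of peaks wider than the median was 0.845 (adjusted p = 0.161). With the ratio taken over 1000 bp around the midpoint, peaks of 1000 bp or more (0.773) and a TSS in a repeat (0.852) turned direction, and neither passed the test either way. From 100 bases before to 50 after the TSS, the SOX odds ratio was 1.34 (exact test, adjusted p = 0.442). Among promoters of ratio 0.5 to 0.6, CCAAT (1.60), the GC box (1.5) and SOX (0.734) no longer passed the test, and the E-box (1.26) and TATAAA (1.24) turned direction with adjusted p = 0.409 and 0.798 by the exact test. The cause was not tested. The list has no height or reads, so weak and absent binding cannot be told apart, and leaving out a replicate could not be computed. No paired analysis was possible because both replicates are combined in the list, with no column for each.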

Other observations

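Outside the chromosomes counted above, the X chromosome had 16 peaks over a coding TSS, of which 14 met the strand condition and 3 were CpG-poor, over *Wdr13*, *Fundc1* and *Pin4*. Among genes named Zfp, zinc finger genes by symbol and a group chosen after the values were seen, 11 of 385 had a CpG-poor TSS peak (2.86%, against 1.01% of coding genes) and 81 had any TSS peak (21%, against 16.2%). Some members picked after their values were seen were *Ptgds*, prostaglandin D2 synthase, with 791 bp at a ratio of 0.126, *Mlc1*, a membrane protein of astrocytes, with 1100 bp at 0.214, and *Tkt*, the transketolase of the pentose phosphate pathway, with 1318 bp at 0.472.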
